A study of Mus musculus with 2 samples.

Results

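The RLTR10 and BGLII rows are repeat types of the mouse genome that belong to or resemble the long terminal repeats (LTRs) and the internal sequence of endogenous retroviruses. They were chosen by name, as every repeat type whose name starts with MMERVK10C, RLTR10 or BGLII. This gave 12 of 952 repeat types, namely 1 internal row (RLTR10-int), 7 RLTR10 LTR rows (RLTR10, RLTR10A, RLTR10B, RLTR10B2, RLTR10C, RLTR10D and RLTR10E) and 4 BGLII LTR rows (BGLII, BGLII_A, BGLII_B and BGLII_Mus). A row starting with MMERVK10C was not analysed here, since 0 rows of the tables used carry that name, and RLTR10-int is the only internal row described.

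Reads came from 1 chromatin immunoprecipitation library made with an antibody to H3.3S31ph, the phosphorylated form of the histone variant H3.3, and from 1 input library, which is sheared chromatin sequenced without antibody. Both libraries came from wild-type mouse embryonic stem (ES) cells of strain 129S1/SvImJ, grown in serum with leukemia inhibitory factor, arrested for 12 h with RO-3306 at 9 µM, which blocks CDK1, a kinase needed to enter mitosis, and collected 11 h after its removal. The sample titles call the cells mitotic, and the share of cells in mitosis was not examined here. There was 1 library per group, sequenced in 2 lanes, so no difference has a replicate check and every interval below is a 95% interval of counting error only. RNA was not measured, so the labelled cell type was not checked against marker genes, and an unsynchronised library is not part of the samples described.

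An endogenous retrovirus is the remnant of a germline infection, with an internal sequence that carries the viral genes flanked by a pair of LTRs that hold its promoter. Recombination between both LTRs of a copy often removes the internal sequence and leaves a solo LTR, so LTR rows and internal rows draw on different sets of copies. MMERVK10C is a mouse class II (ERVK) retrovirus with LTRs of the RLTR10 type, and in ES cells such elements are held silent by the TRIM28 and SETDB1 pathway, which places H3K9 trimethylation. H3.3 is deposited outside of DNA replication and is known to be present at class II retroviruses of ES cells. BGLII rows are a further set of mouse LTRs, and letters and suffixes mark subtypes whose consensus sequences differ.

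Summed over lanes, the tables counted 12235477 reads for the ChIP and 8856751 for the input. The ratio of a row is its share of all ChIP reads in the tables divided by its share of all input reads in the tables, so 1 is the input level. The median ratio over the 704 rows with at least 100 input reads was 0.805, and each member is also placed against this median repeat. All 12 members passed the minimum, with 561 to 19868 input reads each, and together they held 0.898% of ChIP reads and 0.812% of input reads. No source used here states how reads that match several of these related rows were assigned, so neighbouring subtypes may share reads.

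With table totals, most RLTR10 rows stood above the input level and the BGLII rows below it. Where the input level falls depends on the scale between the libraries. Of the 8 RLTR10 rows, 6 had an interval above 1, 0 below 1, and 2 included it, whereas all 4 BGLII rows had an interval below 1. Over all 704 rows, 7.81% had an interval above 1 and 79.5% had one below 1. By their intervals, the BGLII rows were thus on the same side as most repeats and the RLTR10 rows were not. All 8 RLTR10 rows lay above the median repeat, as did BGLII itself, while the intervals of BGLII_A, BGLII_B and BGLII_Mus included it. Of all rows, 27.3% lay above the median repeat and 19.2% below it. The ratio was at least 1.5 times the median repeat, a fold chosen after the values were seen, for RLTR10-int and RLTR10C, against 4.69% of all rows. The median ratio was 1.13 over the RLTR10 LTR rows and 0.815 over the BGLII rows.

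**Figure D1:**
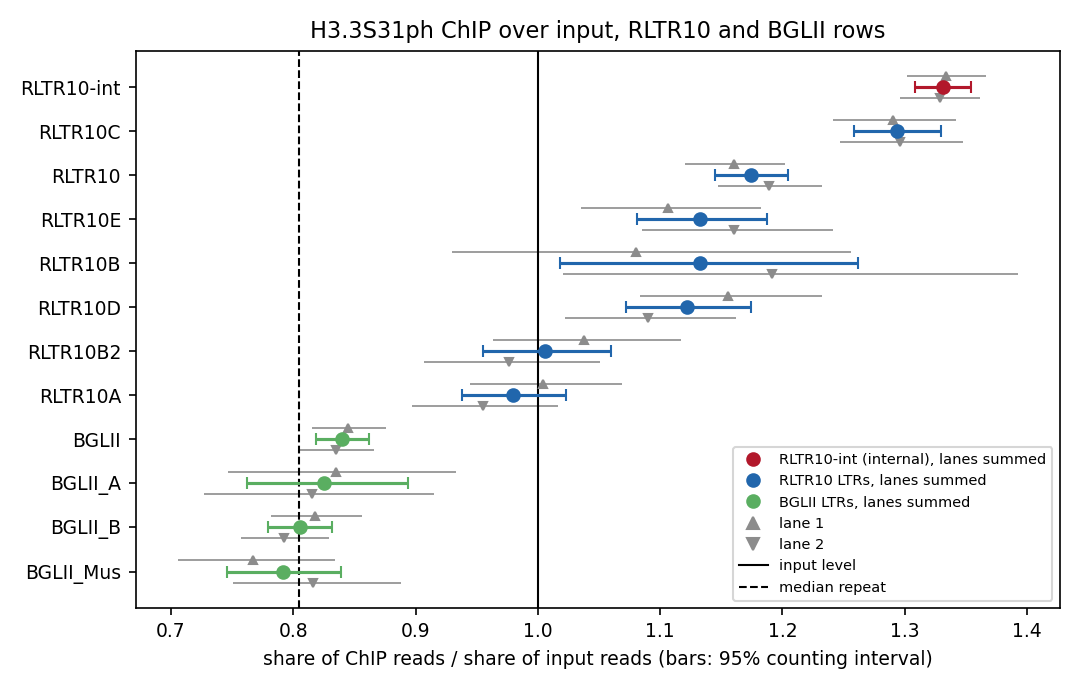
Ratio of ChIP share to input share (x axis, no unit) for each of the 12 rows, ordered by ratio, with lanes summed (coloured circles) and each lane alone (grey triangles); bars are 95% counting intervals, the solid line is the input level and the dashed line the median repeat at 0.805. RLTR10-int and RLTR10C lie highest, RLTR10A and RLTR10B2 lie at the input level, and all 4 BGLII rows lie near the median repeat.

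The internal sequence had the highest ratio of the set. RLTR10-int had 18434 ChIP reads against 9951 input reads in lane 1 and 18102 against 9917 in lane 2, which gave a ratio of 1.33 (1.31 to 1.35) with lanes summed. The lanes gave 1.33 and 1.33, and the log2 ratio of the sum was 0.41. It ranked 19 of 704 rows and 4 of the 55 internal rows (names with -int or _I), whose median ratio was 0.793. RLTR10-int was also the most abundant member, at 27.6% of the members' input reads and 33.3% of their ChIP reads.

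Among the LTRs, RLTR10C stood apart from the other RLTR10 subtypes. Its reads numbered 7205 in the ChIP and 4019 in the input of lane 1, and 7074 and 3972 in lane 2. The ratio was 1.29 (1.26 to 1.33), or 1.61 times the median repeat, and RLTR10C ranked 25 of 704 rows. It exceeded the other 6 RLTR10 LTR rows pooled by a ratio of ratios of 1.16 (1.13 to 1.20), with 1.16 in lane 1 and 1.17 in lane 2. A ratio of ratios divides the ratio of one row by that of another, so it does not depend on how both libraries are scaled to each other.

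A middle group of 4 LTR rows lay above the input level and close together. The row named RLTR10, with no subtype letter, is the most abundant LTR row of its family and had 8135 ChIP and 5048 input reads in lane 1 and 7914 and 4844 in lane 2. Its ratio was 1.17 (1.15 to 1.20). RLTR10E had 2253 and 1466 reads in lane 1 and 2261 and 1418 in lane 2, for a ratio of 1.13 (1.08 to 1.19). The values of these rows were thus alike, and the next member shows how depth limits the order. RLTR10B, the rarest member, had 441 and 294 reads in lane 1 and 437 and 267 in lane 2, so its ratio of 1.13 had a wide interval of 1.02 to 1.26. In lane 1 alone the interval of RLTR10B, 0.930 to 1.26, included the input level. RLTR10D had 2459 and 1532 reads in lane 1 and 2385 and 1593 in lane 2, for a ratio of 1.12 (1.07 to 1.17). None of the 6 pairs among RLTR10, RLTR10E, RLTR10B and RLTR10D was separable at 95%, and the interval of RLTR10 over RLTR10D was 0.994 to 1.10.

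RLTR10B2 and RLTR10A were the lowest RLTR10 rows and did not differ detectably from the input level. RLTR10B2 had 1748 ChIP and 1213 input reads in lane 1 and 1702 and 1269 in lane 2, a ratio of 1.01 (0.955 to 1.06). RLTR10A had 2447 and 1754 reads in lane 1 and 2331 and 1777 in lane 2, a ratio of 0.979 (0.938 to 1.02). Both fell on different sides of 1 in the lanes, at 1.04 and 0.976 for RLTR10B2 and at 1.00 and 0.955 for RLTR10A. Both still lay above the median repeat, at 1.25 and 1.22 times its ratio. RLTR10A lay below the other RLTR10 LTR rows pooled, with a ratio of ratios of 0.828 (0.791 to 0.867), and RLTR10B2 did so at 0.858 (0.813 to 0.905). RLTR10B2 and RLTR10B, which share a subtype letter, had a ratio of ratios of 1.13 (1.00 to 1.27) for RLTR10B over RLTR10B2, whose unrounded lower bound is 1.001 and which does not pass the interval corrected for all pairs.

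The BGLII rows were the lowest and the most uniform. BGLII had 6509 ChIP and 5545 input reads in lane 1 and 6411 and 5589 in lane 2, a ratio of 0.840 (0.819 to 0.862). BGLII_A had 684 and 590 reads in lane 1 and 632 and 564 in lane 2, a ratio of 0.825 (0.762 to 0.894). BGLII_B had 4041 and 3557 reads in lane 1 and 3910 and 3592 in lane 2, a ratio of 0.805 (0.780 to 0.831). All of them lay below 1 in both lanes. BGLII_Mus had 1158 and 1087 reads in lane 1 and 1180 and 1052 in lane 2, a ratio of 0.791 (0.746 to 0.839). The SD of the log2 ratio was 0.038 among the 4 BGLII rows and 0.14 among the 7 RLTR10 LTR rows, a spread over subtypes and not over replicates. Against the median repeat the BGLII rows lay between 0.983 and 1.04 times its ratio, and ranked from 236 to 403 of 704.

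**Figure D2:**
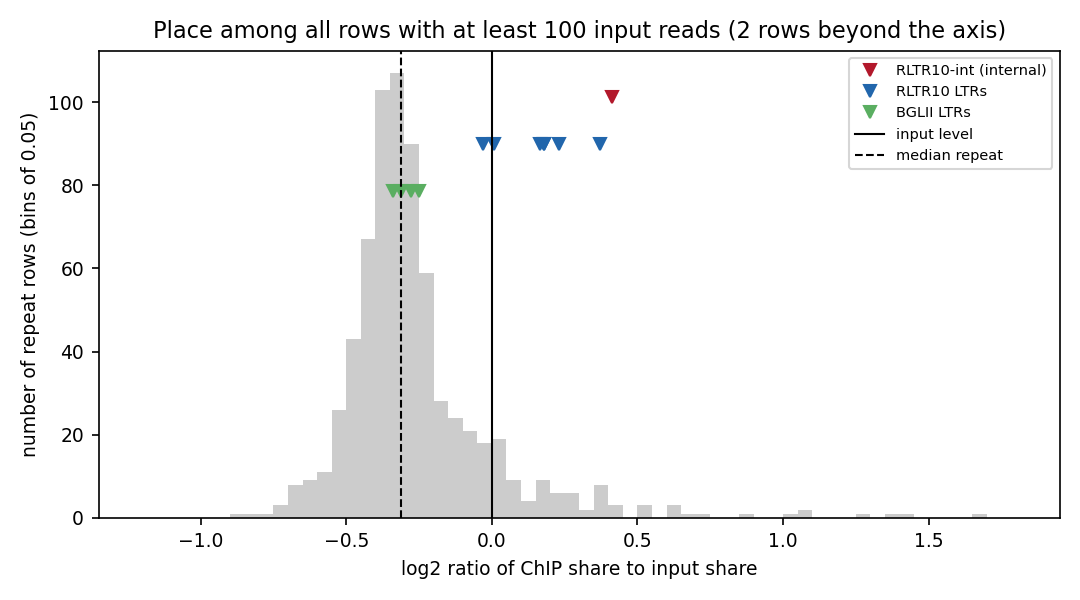
Histogram of the log2 ratio of ChIP share to input share (x axis) over repeat rows with at least 100 input reads (y axis: number of rows per bin), with the members as triangles at their own x values and arbitrary heights; the solid line is the input level, the dashed line the median repeat, and 2 rows lie beyond the axis. The BGLII rows sit in the bulk of all rows, and the RLTR10 rows sit in its upper flank and tail.

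Internal and LTR rows of RLTR10 differed. The ratio of RLTR10-int over that of the 7 LTR rows pooled was 1.15 (1.12 to 1.17), with 1.15 in lane 1 and 1.15 in lane 2. The difference was not the same for every subtype. RLTR10-int over RLTR10C was 1.03 (0.996 to 1.06), so those rows could not be told apart at this depth and a difference above 1.06 lies outside the interval. Over RLTR10 it was 1.13 (1.10 to 1.17), and over RLTR10B2 and RLTR10A it was 1.32 (1.25 to 1.40) and 1.36 (1.30 to 1.42). Without RLTR10C, an alternative chosen after the values were seen, the internal row stood at 1.20 (1.17 to 1.23) times the remaining LTR rows. RLTR10-int over the 4 BGLII rows pooled was 1.62 (1.58 to 1.66).

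**Figure D3:**
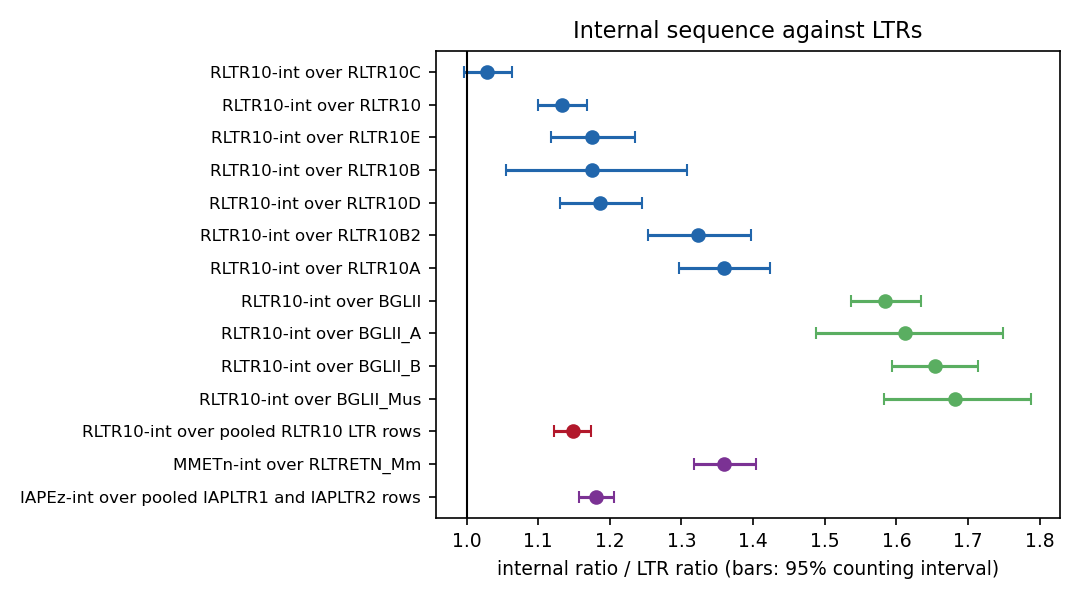
Ratio of the internal row divided by the ratio of LTR rows (x axis, no unit; bars are 95% counting intervals), for RLTR10-int over each RLTR10 LTR row (blue), each BGLII row (green) and the RLTR10 LTR rows pooled (red), and for a pair of other class II families (purple). RLTR10-int over RLTR10C is the only bar plotted that reaches 1, and the pooled RLTR10 value of 1.15 lies below that of MMETn at 1.36.

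LTR subtypes were then set against each other in all 55 pairs. The interval of the ratio of ratios lay off 1 in 43 pairs, and in 38 with an interval corrected for the number of pairs (Bonferroni). All 28 pairs of an RLTR10 with a BGLII row were separable by both intervals, with RLTR10 the higher in each. Within RLTR10, 14 of 21 pairs were separable, 10 after correction, and within BGLII 1 of 6 was, 0 after correction. That pair was BGLII over BGLII_B, at 1.04, whose lower bound was 1.002. The highest over the lowest LTR row, RLTR10C over BGLII_Mus, was 1.63 (1.53 to 1.74), a pair picked by its values.

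Most neighbours in the order of LTR rows did not differ beyond counting error. Only 3 of 10 neighbouring pairs were separable at 95%. These were RLTR10C over RLTR10 at 1.10 (1.06 to 1.14), RLTR10D over RLTR10B2 at 1.12 (1.04 to 1.19) and RLTR10A over BGLII at 1.17 (1.11 to 1.23). After correction 2 remained, without RLTR10D over RLTR10B2. The order thus held 4 levels at 95%, namely RLTR10C, then RLTR10, RLTR10E, RLTR10B and RLTR10D, then RLTR10B2 and RLTR10A, then the BGLII rows. The BGLII over BGLII_B pair is the exception within a level. After correction the place of RLTR10B was not settled, since it was not separable from RLTR10C, RLTR10B2 or RLTR10A. Pooled, the RLTR10 LTR rows had a ratio of 1.16 (1.14 to 1.18) and the BGLII rows one of 0.823 (0.808 to 0.838). The ratio of ratios was 1.41 (1.38 to 1.44), and 1.40 and 1.42 in the lanes.

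**Figure D4:**
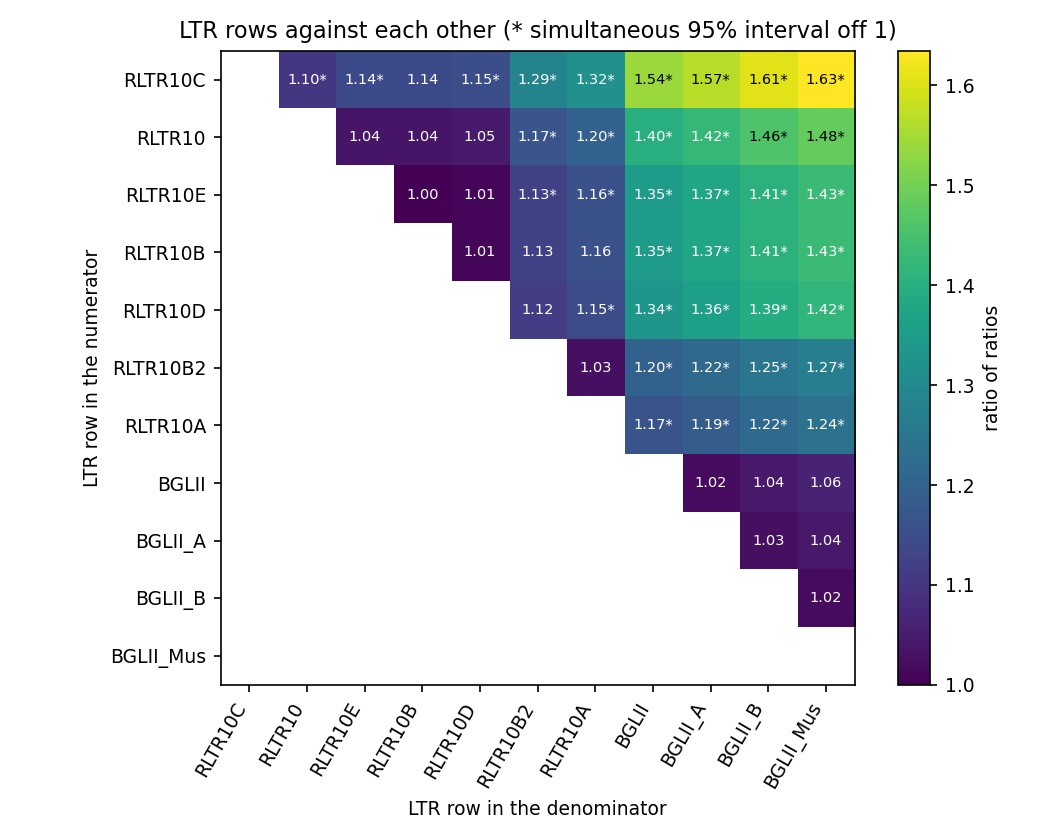
Ratio of ratios of each LTR row in the numerator (y axis) over each row in the denominator (x axis), with rows ordered by their ratio and colour giving the value; an asterisk marks pairs whose corrected 95% interval lies off 1. All 28 pairs of RLTR10 with BGLII carry an asterisk, and none of the 6 pairs within BGLII does.

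Other class II families were compared on the same scale. MMETn-int, the internal row of the early transposons, had a ratio of 1.32 (1.30 to 1.34), and MMETn-int over RLTR10-int was 0.990 (0.968 to 1.01), so their difference was within counting error. Their LTRs did differ when pooled, since RLTRETN_Mm over the pooled RLTR10 LTR rows was 0.836 (0.809 to 0.863). RLTRETN_Mm, at 0.969 (0.941 to 0.997), was close to RLTR10A, the lowest RLTR10 row, at 0.979. With LTR rows pooled, the internal over LTR value was smaller for RLTR10 than for MMETn, by a quotient of 0.844 (0.812 to 0.878). RLTR10-int over RLTR10A alone was 1.36 (1.30 to 1.42), like MMETn-int over RLTRETN_Mm at 1.36 (1.32 to 1.40). The other RLTR10 LTR rows gave lower values, down to 1.03 for RLTR10C. Against IAPEz, an intracisternal A particle family, the internal row of IAPEz was 2.05 (2.01 to 2.09) times RLTR10-int and its LTRs 1.99 (1.95 to 2.04) times the RLTR10 LTR rows. With the IAPLTR1 and IAPLTR2 rows pooled as its LTRs, the internal over LTR value of IAPEz was 1.18 (1.16 to 1.21). The quotient of RLTR10 over IAPEz was 0.972 (0.943 to 1.00), which included 1. The pooled value did not hold for every LTR row of IAPEz. IAPLTR1a_Mm had a ratio of 3.20 (3.04 to 3.37), above IAPEz-int at 2.73 (2.71 to 2.75). IAPLTR1_Mm, at 2.59 (2.48 to 2.72), lay just below IAPEz-int, and IAPLTR2_Mm, IAPLTR2a and IAPLTR2b lay further below it.

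Of the 3 further LTR families compared, RLTR9 had values closest to RLTR10. Its members include LTRs known to bind pluripotency factors in ES cells. The 8 RLTR9 rows had ratios from 0.869 to 1.29, with RLTR9E at 1.29 (1.25 to 1.33), like RLTR10C, and pooled they were 0.963 (0.943 to 0.984) times the RLTR10 LTR rows. With rows pooled, the 15 RLTR13 rows and 8 RLTR20 rows were lower, at 0.736 (0.723 to 0.749) and 0.703 (0.688 to 0.718) times the RLTR10 LTR rows. Single RLTR13 rows had ratios from 0.74 to 1.03, with a median of 0.825. The highest, RLTR13D6 at 1.03 (1.01 to 1.05), was thus not below RLTR10B2 at 1.01 or RLTR10A at 0.979. The highest RLTR20 row had a ratio of 0.918. Pooled, the BGLII rows were close to the pooled RLTR13 and RLTR20 rows. The SD of the log2 ratio was 0.16 over RLTR13 rows and 0.062 over RLTR20 rows, against 0.038 over BGLII rows. RLTR20 over BGLII was 0.990 (0.967 to 1.01) and RLTR13 over BGLII 1.04 (1.02 to 1.06).

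The lanes are repeat runs of the same libraries and bound the counting noise only. The log2 ratios of the members differed between lanes by a median of 0.057 and by 0.14 at most, in RLTR10B, and the interval of the lane difference included 0 for all 12. In 10 of 12 members both lanes lay on the same side of 1, RLTR10B2 and RLTR10A being the exceptions. The authors' deposited table also gives a log2 ratio per lane on another scale, with bounds. Its conservative value is whichever bound lies closer to 0, and 0 where the bounds enclose 0. By that conservative value in the authors' deposited table, the 8 RLTR10 rows were above 0 in each lane, RLTR10A and RLTR10B2 included, where 13.3% of all 952 rows were above 0 in lane 1 and 12.9% in lane 2. BGLII, BGLII_B and BGLII_Mus were below 0 in both lanes of the authors' deposited table, where 40.8% and 40.2% of rows were, and BGLII_A was at 0. These shares also cover the rows with fewer than 100 input reads, while each member had at least 561. RLTR10-int had deposited log2 ratios of 0.584 and 0.578 in the authors' deposited table, RLTR10C had 0.537 and 0.543, and BGLII had -0.074 and -0.092.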

How the data were processed

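Reads were counted per repeat type in 1 H3.3S31ph ChIP library and 1 input library of mouse ES cells labelled mitotic. Per the submitters' processing notes, Bowtie 1.0.0 and the genome build mm9 were used. Per the labels' protocols, libraries had 10 amplification cycles and single reads of 50 bp. The assignment of reads to repeat types and the handling of duplicates are not given in the sources used here. Per the file headers, the deposited tables hold raw read counts and the authors' log2 ratios with bounds, 1 table for each of 2 lanes. The deposited log2 ratios were recovered from the counts after adding 0.5 reads and subtracting a lane constant, 0.31 in lane 1 and 0.29 in lane 2.

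Lanes were summed. Lane 1 held 6204712 ChIP and 4467116 input reads in the tables, and lane 2 held 6030765 and 4389635. Library totals were not used here, so table totals set the scale. Single ratios have 95% exact conditional (Clopper-Pearson) intervals, and ratios of ratios have 95% log-normal intervals from their 4 counts. With 1 library per group no p-value was computed. Rows needed at least 100 input reads. Every member was named. Alternatives were each lane alone, other scalings (the median repeat set to 1, totals without the 5 most abundant repeats, the deposited scale), 1 read added, minimums of 10 and 1000 input reads, and other ways of pooling. A planned comparison of MMERVK10C with RLTR10-int was not made, since 0 rows bear that name, and the planned ETnERV, MMERVK9 and MMERVK10D rows likewise numbered 0. The interval code was tested on simulated data. Members and comparison families were chosen with earlier results of these data known. Sequences and genome positions were not analysed here. Python 3.11.15, scipy 1.17.1 and pandas 2.3.3 were used.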

Additional observations from a re-analysis of the deposited data

How the results depend on the processing

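Ratios of ratios do not change with the scale between libraries, while single ratios do. The pooled ratio of all 12 members, 1.11 with table totals, was 1.37 with the median repeat set to 1, 1.27 without the 5 most abundant repeats and 1.24 on the deposited scale. With the median repeat set to 1, the number of members with an interval below 1 went from 4 to 0, and BGLII, BGLII_A and BGLII_B, below 1 with table totals, had ratios of 1.04, 1.03 and 1.00. The number above 1 ranged from 5 to 9 over all alternatives, against 6. RLTR10-int over the RLTR10 LTR rows, 1.15, was 1.19 from unweighted mean log2 ratios, 1.31 with the BGLII rows added to the LTR rows and 1.20 with RLTR10C left out. RLTR10 LTR rows over BGLII rows, 1.41, were 1.35 with RLTR10C left out. Leaving out RLTR10C was chosen after seeing the data. Of 51 recomputed values of the main comparisons, 43 stayed within their interval, or within 1.5 times for counts. Part of this tally could not have come out otherwise. Rescaling moves a member and the median repeat together, so it cannot change the count above the median repeat. Every member had at least 561 input reads, so the lower alternative minimum of input reads removed none of them. The higher minimum removed only RLTR10B, which is neither the highest nor the lowest LTR row. Counts have no direction, and the highest over the lowest LTR row is above 1 by its making. A change of direction was thus possible only for the other main ratios, where 0 changed. Among ratios of single members, counted apart, 3 changed side of 1 by their value, those of BGLII, BGLII_A and BGLII_B with the median repeat set to 1. Only the interval of BGLII, 1.02 to 1.07, then lay above 1. Those of BGLII_A, 0.947 to 1.11, and BGLII_B, 0.969 to 1.03, included it. No paired analysis was possible because each group had 1 library. Depth limits RLTR10B most, whose interval spanned 21.5% of its ratio, against 3.46% for RLTR10-int.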

Other observations

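Internal rows of the table were set against LTR rows of the same name, a comparison chosen after the values were seen. Names were matched without regard to case, species suffix or an LTR suffix, and lettered subtypes were pooled. Of 39 internal rows with such LTR rows, 6 had an internal over LTR interval above 1, 17 had one below 1, and 16 included 1, with a median value of 0.954. The 6 were RLTR6-int at 1.31 (1.26 to 1.36), IAPLTR4_I at 1.30 (1.18 to 1.44), RLTR44-int at 1.26 (1.18 to 1.34), RLTR10-int at 1.15, IAPEY3-int at 1.15 (1.09 to 1.21) and RMER16-int at 1.05 (1.01 to 1.09). IAPEz-int and MMETn-int, whose LTR rows carry other names, are among the internal rows that were not matched. The lowest value was that of RLTR1B-int, at 0.731 (0.700 to 0.764). Next came RLTR42-int at 0.773 (0.681 to 0.878) and MURVY-int at 0.778 (0.738 to 0.821). RLTR45-int at 0.794 (0.767 to 0.822) and IAPEy-int at 0.824 (0.779 to 0.871) followed. The MaLR internal rows MTC-int and ORR1B1-int stood at 0.927 (0.909 to 0.946) and 0.940 (0.922 to 0.958). No explanation was tested.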
